A study of Mus musculus with 12 samples.

Results

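The chromatin around 7 genes that act in the node, notochord and organizer of the early mouse embryo was described: T, Noto, Foxd4, Gsc, Lhx1, Bicc1 and Sox9, of 21883 protein-coding genes in the RefSeq table for mm10. Peaks came from 6 deposited lists, 1 for each group of embryo cells. A peak was given to a gene when that gene was the nearest protein-coding gene to its midpoint, within 100 kb, with a distance of 0 inside the gene. Peaks of different lists that overlapped by at least 1 base were joined into a region, so peaks joined through another peak need not overlap each other. This gave 77 regions of 99096 in all: 21 for Sox9, 17 for Gsc, 17 for Bicc1, 11 for Lhx1, 8 for Noto, 2 for Foxd4 and 1 for T.

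Open chromatin was measured by ATAC-seq, in which a transposase cuts and tags accessible DNA, in mouse embryos at embryonic day 7.5. All embryos were homozygous for a knock-in Foxa2 allele that carries tagRFP, a red fluorescent protein, joined to the end of Foxa2 by a flexible linker. In the WT groups the Foxa2 part was complete, and in the dHx groups 10 residues of an alpha helix were missing. Cells were sorted into High (above the red signal of heterozygous embryos), Middle (up to that signal) and Negative, so that the study compares 2 genotypes at 3 levels of Foxa2 in 12 samples, 2 per group. The sort therefore reads the same protein that the genotypes alter, and no group lacks the tag. Both genotypes were kept on a mixed C57Bl6/J and CD-1 background, embryos were not sexed, the extraembryonic part was cut away, about 10 embryos went into a sort, and a library held 2000 to 5000 cells. Each list is a single set of peaks called on pooled samples, per the peak names, so no group has a replicate value here and no comparison below carries a test.

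The node lies at the front end of the primitive streak and is the organizer of the mouse gastrula. Its cells form the notochord, a midline rod that patterns the neural tube and the gut below it, and ciliated cells of the node set the left-right axis. Foxa2 is a pioneer transcription factor that binds DNA within nucleosomes, and embryos without it form no proper node or notochord. T and Noto are transcription factors of the notochord, Gsc and Lhx1 are homeobox factors of the organizer and the mesendoderm ahead of it, Bicc1 is an RNA-binding protein of the node, and Sox9 is needed later for the notochord to persist.

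The starts of these genes are shown first, since 2 of the promoters (T and Lhx1) overlapped a peak in every list and 2 (Noto and Gsc) in few. RefSeq promoters (GRCm38.p6, the mm10 assembly) of 300 bases, from 250 before the start of transcription to 50 after it, were matched for 5 of the 7 genes, namely T, Noto, Gsc, Lhx1 and Foxd4. They are written 5' to 3' along the strand of the gene, in lower case, and capitals mark the only match to any of 6 motifs searched on both strands. T lies at chr17:8434173-8434472 on the plus strand, Noto at chr6:85423636-85423935 on the plus strand, Gsc at chr12:104473187-104473486 on the minus strand and Lhx1 at chr11:84525485-84525784 on the minus strand.
T: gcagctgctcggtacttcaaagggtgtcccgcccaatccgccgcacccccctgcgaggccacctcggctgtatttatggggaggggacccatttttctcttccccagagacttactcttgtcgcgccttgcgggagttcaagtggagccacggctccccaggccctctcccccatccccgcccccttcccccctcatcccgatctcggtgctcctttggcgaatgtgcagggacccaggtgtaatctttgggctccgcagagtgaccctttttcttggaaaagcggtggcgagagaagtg
Noto: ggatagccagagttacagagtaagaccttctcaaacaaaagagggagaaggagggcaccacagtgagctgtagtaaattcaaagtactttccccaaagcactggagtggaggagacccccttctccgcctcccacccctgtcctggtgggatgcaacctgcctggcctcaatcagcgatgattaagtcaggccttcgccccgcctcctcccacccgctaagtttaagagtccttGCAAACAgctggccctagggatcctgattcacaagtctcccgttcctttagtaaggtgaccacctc
Gsc: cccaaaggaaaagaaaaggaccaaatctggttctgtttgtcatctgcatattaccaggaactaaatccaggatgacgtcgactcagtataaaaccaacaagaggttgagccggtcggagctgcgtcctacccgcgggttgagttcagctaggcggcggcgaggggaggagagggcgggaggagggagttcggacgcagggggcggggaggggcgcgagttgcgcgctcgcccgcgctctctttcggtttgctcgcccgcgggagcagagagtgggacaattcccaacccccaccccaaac
Lhx1: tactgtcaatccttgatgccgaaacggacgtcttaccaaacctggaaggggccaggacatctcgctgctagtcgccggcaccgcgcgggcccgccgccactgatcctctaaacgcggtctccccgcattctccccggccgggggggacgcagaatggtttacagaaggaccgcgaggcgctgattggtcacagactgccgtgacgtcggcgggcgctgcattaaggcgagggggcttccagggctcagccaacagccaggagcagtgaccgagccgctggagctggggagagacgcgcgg

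The T and Lhx1 promoters overlapped a peak in all 6 lists, as did 34.9% of 21262 protein-coding promoters. The Noto promoter overlapped a peak in WT High and dHx Negative, the Gsc promoter in dHx Middle and dHx Negative, and the Foxd4 promoter (chr19:24900967-24901266, minus strand) in no list. Over all promoters the share with a peak was 50.2% in WT High, 45.8% in WT Middle and 47% in WT Negative, and 52%, 46.8% and 51.3% in the same dHx gates. A promoter with no peak in any list was common, at 38.1% of all. CpG pairs, which are dense in promoters that stay open in many tissues, numbered 17 in T, 6 in Noto, 25 in Gsc, 31 in Lhx1 and 12 in Foxd4, beside a median of 13 over all promoters and of 23 over those open in all 6 lists. Gsc thus had a CpG-dense start that was listed as open in 2 lists only. The motifs searched were the forkhead letters TGTTTAC and TGTTTGC, the T-box letters AGGTGTGA, the TEAD letters CATTCC, the homeobox letters GGATTA and the Sox letters ATTGTT, none of which is a part of another. The match is the reverse complement of TGTTTGC in Noto, from 16 bases before the start, and it lay inside both peaks found there. Of all promoters of this length 4.58% hold TGTTTGC, and a match describes letters, not a bound site.

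The deposited score of a peak is on a −log10 scale and is the authors' own value. Within a list the scores fell on the steps of a Poisson distribution with 1 background mean, so each could be turned into the number of reads or fragments stacked at the top of the peak and divided by that background. This ratio is called the height below. It is given with an exact 95% Poisson interval where comparisons rest on it, and the interval covers counting error only. Overlapping intervals do not show that heights are equal, and no pair of heights was tested. The lists held 37129 to 50424 peaks, with fitted backgrounds of 0.476 (dHx High) to 1.57 (dHx Negative) reads and lowest heights of 3.83 (dHx Negative) to 6.30 (dHx High). A weak region could thus be listed in dHx Negative and missed in dHx High. Over all regions open in both High lists the median log2 ratio of WT to dHx height was -0.57, a shift of scale against which single regions have to be read. In these sorted bulk samples a lower height may mean that fewer cells had the region open or that it was less open in each cell, which cannot be told apart.

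The lists also held peaks near marker genes of other cell types of the embryo. The 12 endoderm genes had 49 peaks in WT High, 60 in WT Middle and 25 in WT Negative, and 38, 62 and 31 in the same dHx gates. The 12 mesoderm genes had 34 to 44 peaks in the 4 RFP-positive lists against 48 and 68 in the Negative lists, and the 12 epiblast and neural plate genes had 26 to 41 against 52 and 56. The 10 extraembryonic ectoderm genes had 28 to 33 in the RFP-positive lists and 41 and 49 in the Negative lists. In every gate at least 8 genes of each of these marker lists had a peak. Of all 21883 protein-coding genes 18606 had a region in at least 1 list, so this count does not set the marker genes apart. The genes of a list did not all go one way: more peaks in High than in Negative were found for 9 of 12 endoderm genes in WT and 7 in dHx (fewer for 2 and 3), and for 5 of 12 mesoderm genes in WT and 0 in dHx (fewer for 7 and 10). These counts are not scaled to the length of the lists, which held 45689 (High) and 39569 (Negative) peaks in WT and 37129 and 50424 in dHx. Among 40 other node, notochord and organizer genes, more peaks in High were found for 23 in WT and 15 in dHx (fewer for 14 and 20). No peak in either Negative list was found for Hnf4a among the endoderm genes and Gata1 among the mesoderm genes, and none in either High list for Hand1 and Twist1 of mesoderm and Pou5f1 of epiblast. Hand1 stands in the extraembryonic list too, as do Cdx2 and Eomes, which are also among the node genes below. Foxa2 itself had 16, 19 and 11 peaks in WT High, Middle and Negative and 16, 20 and 15 in dHx. How far the mix of cells enters the differences at the 7 genes was not tested.

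The 7 genes had 29, 30 and 29 peaks in WT High, WT Middle and WT Negative, and 31, 28 and 34 in dHx High, dHx Middle and dHx Negative. Noto and Foxd4 had more peaks in the High than in the Negative list of both genotypes, and Gsc and Sox9 fewer. T had 1 assigned peak in each Negative list and none in High, but its start lies in a predicted gene that takes the peaks there. That gene took 2 regions, with 1 WT High and 1 dHx High peak in each. Within 100 kb of T, whichever gene is nearest, there were 12 peaks in WT High, 4 in WT Negative, 13 in dHx High and 8 in dHx Negative. Most of these High peaks thus lay nearest to other genes, and the neighbour T2 is 11.7 kb from T. Noto had 5 peaks in each High list and 1 (WT) or 2 (dHx) in the Negative lists. Sox9 had 6 and 9 in the High lists and 11 and 12 in the Negative lists. Bicc1 had equal numbers in the 2 gates of each genotype (5 in WT and 7 in dHx). For Lhx1 the order turned over, with 6 in WT High, 4 in WT Negative, 4 in dHx High and 5 in dHx Negative. These are raw counts, and the order of the whole lists turned over too. The lists held 45689 peaks in WT High, 39569 in WT Negative, 37129 in dHx High and 50424 in dHx Negative.

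**Figure D1:**
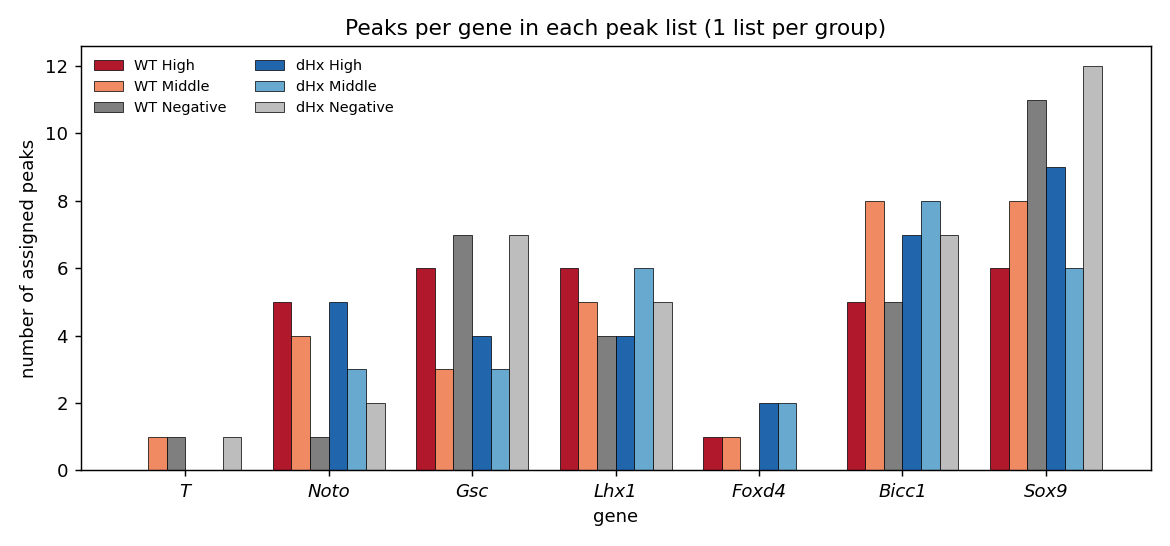
Number of assigned peaks (vertical axis) of each of the 7 genes (horizontal axis) in each of the 6 peak lists (bars, 1 list per group, so there is no error bar). Noto falls from 5 peaks in the High lists to 1 and 2 in the Negative lists, while Sox9 has 11 and 12 peaks in the Negative lists.

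Of the 77 regions, 23 overlapped their gene, 12 more lay within 5 kb of it, and 15 had their midpoint over 50 kb away. The median width was 430 bases. A region in 1 list alone was the commonest kind, with 35 regions (45.5%), as it was over the genome (45.3%). These regions were weak, with a median height of 6.38 and a highest of 14.0. The 19 regions open in 4 or more lists had a median of 23.1 for the greatest of their heights. Regions open in all 6 lists numbered 6 (7.79%, beside 13.6% of all regions): 1 each at Noto, Gsc, Bicc1 and Sox9 and 2 at Lhx1. With every peak within 100 kb of the 7 genes counted, whichever gene is nearest, they were 15 of 127, and among the upper 50% of each list by score 2 of 30.

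**Figure D2:**
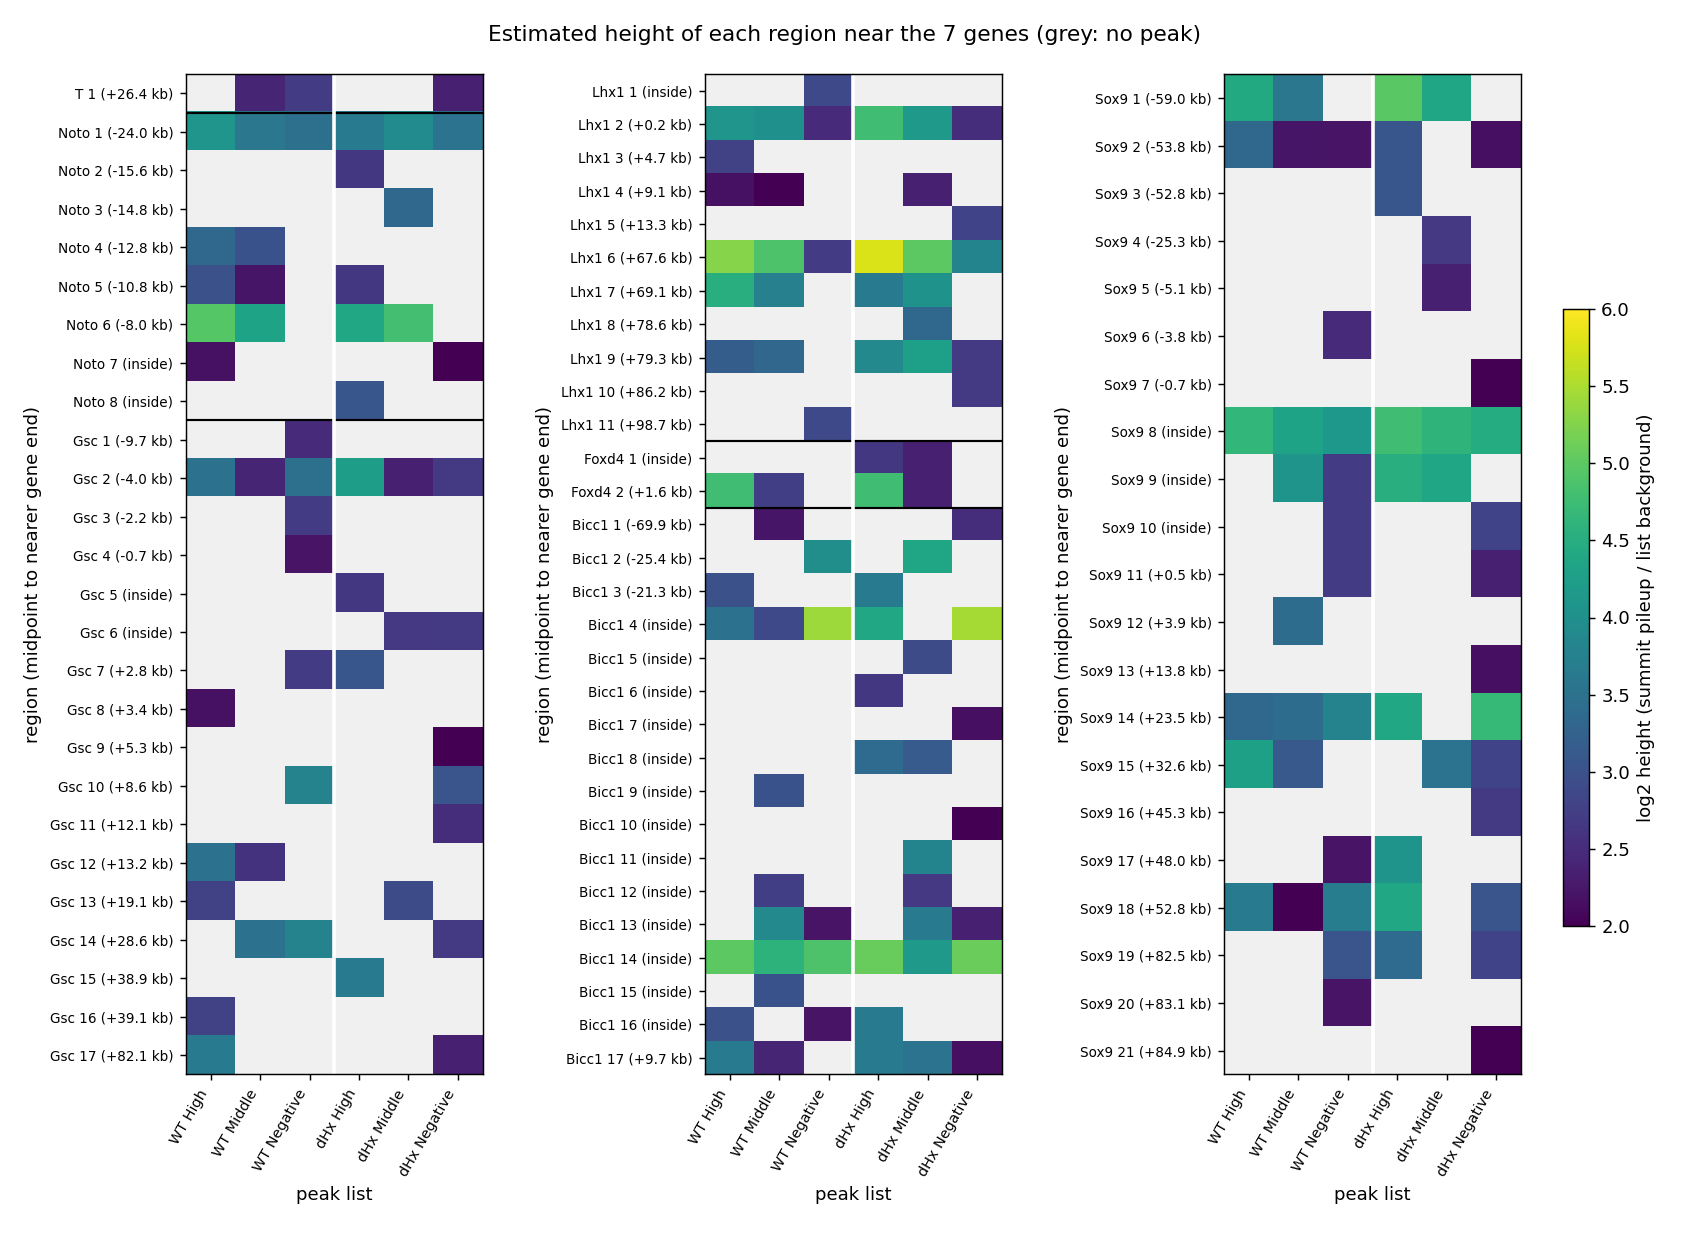
Each row is 1 of the 77 regions, ordered by gene and position, each column 1 of the 6 peak lists, and the shade is the height of the peak (summit reads over the fitted background) with grey cells where no peak is listed. Labels give the distance to the nearer end of the gene, with minus for lower coordinates. Most rows are filled in 1 or 2 lists, and the 6 rows filled in every list include the start of Lhx1 and the lower-coordinate end of Sox9.

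Noto encodes a homeobox factor of the node and posterior notochord that acts upstream of cilium formation (NCBI gene 384452, chr6:85423886-85428877, mm10, plus strand). Its most open region (chr6:85415452-85416313, 862 bases) lay 8.0 kb upstream of the start, between genes. The height was 30.7 (20.2 to 44.7) in WT High, 20.1 (13.5 to 28.6) in WT Middle, 21.0 (10.1 to 38.6) in dHx High and 28.0 (17.5 to 42.4) in dHx Middle. No peak was listed in WT Negative or dHx Negative, whose lowest heights were 4.62 and 3.83. All 4 RFP-positive intervals overlapped each other, and differences by genotype or gate among them were not tested.

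Other Noto regions were more varied. A region 24.0 kb upstream (chr6:85399570-85400264) was open in every list, at 17.1, 12 and 11.1 in WT High, Middle and Negative and at 12.6, 15.3 and 11.5 in dHx, with intervals that all overlapped. A region 12.8 kb upstream (chr6:85410807-85411282) was listed in WT High at 10.2 and WT Middle at 8.02 and in no other list. The region 10.8 kb upstream (chr6:85412866-85413328) had 7.96 in WT High, 4.68 in WT Middle and 6.30 in dHx High, the last being the lowest height of its list. Of all 8 Noto regions, 6 had peaks in RFP-positive lists alone, beside 40.1% of all regions of the series. In 1 list only were 3 of the 8, at heights of 6.30 to 10.2.

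At the Noto start itself the chromatin was barely listed as open. The region that holds the start (chr6:85423688-85424153) had a height of 4.55 in WT High and 3.83 in dHx Negative, each the lowest height its list holds. It is the region whose bases include the forkhead letters in capitals above. A region inside the gene (chr6:85425018-85425247) had 8.40 in dHx High alone. The remaining Noto regions, at 15.6 and 14.8 kb upstream, were listed once each, in dHx High at 6.30 and in dHx Middle at 10.2. Smyd5, the next protein-coding gene on the far side, is 3.10 kb away, which ends the stretch given to Noto there.

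Foxd4, a forkhead factor (gene 14237, chr19:24898943-24901016, minus strand), had 2 regions and no peak in either Negative list. The region 1.61 kb upstream of its start (chr19:24902265-24902986, 722 bases) had a height of 27.3 (17.5 to 40.6) in WT High and 6.69 (3.21 to 12.3) in WT Middle. It had 27.3 (14.5 to 46.7) in dHx High and 5.09 (1.39 to 13) in dHx Middle. High and Middle intervals did not overlap in either genotype, with log2 High over Middle of 2.03 in WT and 2.43 in dHx, beside medians of 0.35 and 0.55 over all regions open in both lists. This was the only region of the 77 whose High and Middle intervals were apart, and its High values were nearly equal in the 2 genotypes. Inside the gene, a second region (chr19:24899688-24900003) was listed in dHx High at 6.30 and dHx Middle at 5.09, the lowest heights of both lists, and in no WT list.

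**Figure D3:**
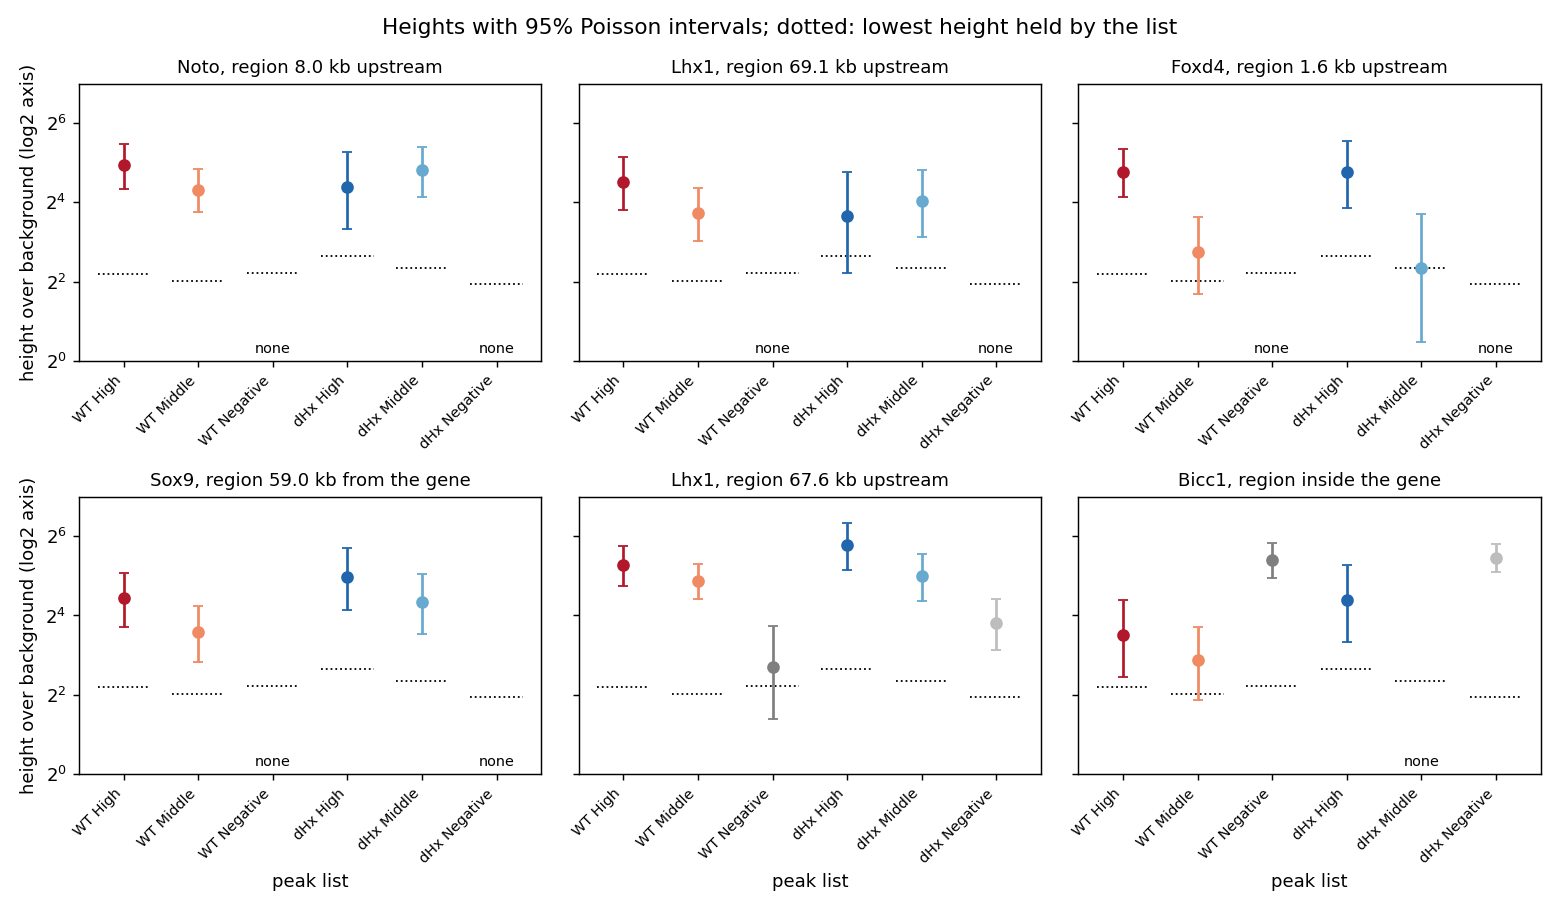
Height (summit reads over the fitted background, with exact 95% Poisson intervals for counting error as bars) of 6 regions of Noto, Lhx1, Foxd4, Sox9 and Bicc1 in each of the 6 lists, on a log2 axis, with "none" where no peak is listed and a dotted line at the lowest height the list holds. The region upstream of Foxd4 stands at 27.3 in both High lists and at 6.69 and 5.09 in the Middle lists, and the region upstream of Noto has points in the 4 RFP-positive lists only.

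T encodes Brachyury, the T-box factor that drives notochord and mesoderm genes (gene 20997, chr17:8434423-8442496, plus strand). A predicted gene, LOC115486424 (chr17:8432660-8434528), spans its start, so the rule gave the peaks there to that gene. The region that holds the T start (chr17:8433434-8434608), counted here outside the 77, was open in all 6 lists. Its height was 7.96 (3.20 to 16.4) in WT High, 6.69 (3.21 to 12.3) in WT Middle and 12 (6.39 to 20.5) in WT Negative. In dHx it was 14.7 (5.91 to 30.3) in High, 7.63 (2.80 to 16.6) in Middle and 7.66 (3.96 to 13.4) in Negative. The intervals all overlapped. The WT Middle, dHx High and dHx Negative peaks of this region ended before the T start, at 8434210, 8434299 and 8434418. A region 4.58 kb upstream (chr17:8429317-8430363) was listed in WT High at 6.82 and in all 3 dHx lists, at 18.9 (8.65 to 35.9) for High, 11.5 (5.23 to 21.7) for Middle and 6.38 for Negative. The 1 region the rule gave to T (chr17:8468684-8469177) lay 26.4 kb beyond the gene, with 5.11 in dHx Negative, 6.46 in WT Negative and 5.35 in WT Middle. Within 100 kb of T, whichever gene is nearest, there were 12, 8 and 4 peaks in WT High, Middle and Negative and 13, 6 and 8 in dHx.

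Lhx1 encodes a LIM homeobox factor of the organizer that is needed to form the head (gene 16869, chr11:84517975-84525534, minus strand). The region with the greatest height among the 77 (chr11:84592718-84593616, 899 bases) lay 67.6 kb upstream of its start, with Lhx1 as the nearest protein-coding gene. It had a height of 38.7 (26.8 to 54.0) in WT High, 29.4 (21.4 to 39.5) in WT Middle and 6.46 (2.60 to 13.3) in WT Negative. In dHx it had 54.6 (35.7 to 80.0) in High, 31.8 (20.6 to 46.9) in Middle and 14.0 (8.80 to 21.3) in Negative. The High intervals of both genotypes lay above those of their Negative lists, with log2 ratios of 2.58 in WT and 1.96 in dHx, beside medians of 0.23 and 0.91 over all regions open in both lists. The WT Middle interval was also above WT Negative (log2 ratio 2.19), while those of dHx Middle and dHx Negative overlapped slightly.

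Beside it, 69.1 kb upstream, lay a region listed in the 4 RFP-positive lists alone (chr11:84594332-84594857), at 22.7 in WT High, 13.4 in WT Middle, 12.6 in dHx High and 16.5 in dHx Middle. A region 79.3 kb upstream (chr11:84604536-84605204) had 9.10, 10.0, 14.7 and 19.1 in those lists in the same order, 6.38 in dHx Negative and no peak in WT Negative. These 3 regions are close neighbours on the chromosome, and the distances alone do not say that they belong to Lhx1.

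At the Lhx1 start (chr11:84525060-84526486, 1427 bases) the height was 17.1 in WT High, 16.1 in WT Middle and 5.54 in WT Negative, and 27.3, 17.8 and 5.74 in the same dHx gates. It was open in every list and higher in the RFP-positive ones, but of the 4 pairs of an RFP-positive with a Negative list only dHx High (14.5 to 46.7) and dHx Negative (2.63 to 10.9) had intervals that were apart, with a log2 ratio of 2.25 beside the median of 0.91 over all regions. The other 3 pairs overlapped, with log2 ratios of 1.62 for WT High, 1.53 for WT Middle and 1.63 for dHx Middle. The medians of these 3 ratios over all regions were 0.23, -0.10 and 0.32. Within the gene a region (chr11:84523702-84524119) was listed in WT Negative at 7.39 alone, and 4.68 kb upstream another (chr11:84529875-84530548) in WT High at 6.82 alone. The region 9.11 kb upstream had 4.55 in WT High, 4.01 in WT Middle and 5.09 in dHx Middle, the lowest height of each list. The other 4 Lhx1 regions were listed once each, with heights of 6.38 to 10.2.

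Gsc encodes goosecoid, a homeobox repressor of the organizer and anterior mesendoderm (gene 14836, chr12:104471209-104473236, minus strand). Of its 17 regions 6 had peaks in RFP-positive lists alone, 6 in Negative lists alone and 5 in both. Over all regions of the series 40.1% were in RFP-positive lists alone and 20.1% in Negative lists alone, with 4 lists of the first kind and 2 of the other. Only 1 was open in all 6 lists (chr12:104466812-104467537, 4.04 kb beyond the end of the gene), at 11.4, 5.35 and 11.1 in WT High, Middle and Negative and at 18.9, 5.09 and 6.38 in dHx. The start region (chr12:104472885-104473478) was listed in dHx Middle at 6.36 and dHx Negative at 6.38. Near the gene 5 further regions were weak: chr12:104468827-104469272 with 6.46 and chr12:104470289-104470650 with 4.62, both in WT Negative, chr12:104471882-104472138 with 6.30 in dHx High, chr12:104475511-104476461 with 6.46 in WT Negative and 8.40 in dHx High, and chr12:104476563-104476794 with 4.55 in WT High.

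Upstream of Gsc neighbouring regions were listed in different gates. The region 8.60 kb upstream of the start (chr12:104481500-104482171) was listed in the 2 Negative lists alone, at 13.9 (7.75 to 22.8) in WT and 8.30 (4.42 to 14.2) in dHx. At 12.1 kb a region was in dHx Negative alone, at 5.74. The region 13.2 kb upstream (chr12:104486296-104486605) was listed in WT High at 11.4 and WT Middle at 6.02 and in no other list. At 28.6 kb (chr12:104501599-104502072) the heights were 13.9 in WT Negative, 11.4 in WT Middle and 6.38 in dHx Negative. Regions at 19.1 and 82.1 kb paired lists of different genotype, with 6.82 in WT High and 7.63 in dHx Middle at the first and 12.5 in WT High and 5.11 in dHx Negative at the other. In all, 9 of the 17 Gsc regions were in 1 list, at 3.83 to 12.6.

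Bicc1 encodes an RNA-binding protein with KH domains that acts in left-right patterning at the node (gene 83675, chr10:70922830-71159690, 237 kb long). Of its 17 regions 13 overlapped the gene. The region open in all 6 lists (chr10:71130063-71130820) had heights of 31.8, 24.1 and 29.6 in WT High, Middle and Negative and of 33.6, 17.8 and 33.8 in dHx, with no interval apart from another of the pairs compared.

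The other prominent Bicc1 region (chr10:70932562-70933436, 875 bases, inside the gene near its lower-coordinate end) ran the other way from Lhx1. The height was 42.5 (31.1 to 56.6) in WT Negative, 11.4 (5.45 to 20.9) in WT High and 7.36 (3.67 to 13.2) in WT Middle. It was 44.0 (34.3 to 55.7) in dHx Negative and 21.0 (10.1 to 38.6) in dHx High, with no peak in dHx Middle. In WT the Negative interval lay above both RFP-positive ones, with a log2 ratio of High to Negative of -1.90 and of Middle to Negative of -2.53. In dHx the High and Negative intervals overlapped, with a log2 ratio of High to Negative of -1.07. The medians of these ratios over all regions open in both lists were 0.23 for WT High, -0.10 for WT Middle and 0.91 for dHx High. Bicc1 thus held a region that was highest in the RFP-negative cells beside 1 that was open at overlapping heights in every list.

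The rest of Bicc1 was open in fewer lists. A region at chr10:71127724-71128760 had 14.7 in WT Middle and 12.7 in dHx Middle, against 4.62 in WT Negative and 5.11 in dHx Negative and no peak in either High list. A region at chr10:71027887-71028362 was listed in dHx High at 10.5 and dHx Middle at 8.90 and in no WT list. The higher-coordinate end of the gene (chr10:71158905-71159688) had 7.96 in WT High, 4.62 in WT Negative and 12.6 in dHx High. A region 25.4 kb below the gene (chr10:70897187-70897616) was listed in WT Negative at 15.7 and dHx Middle at 20.4, a pair that shares neither genotype nor gate. The remaining regions inside the gene lay at chr10:70946000-70946509, chr10:70949607-70950135, chr10:70960505-70960876, chr10:71082429-71082836, chr10:71112607-71112907, chr10:71118975-71119254, chr10:71123486-71124025 and chr10:71153214-71153420. Of these, 7 were in 1 list, at 3.83 to 14.0, and that at chr10:71123486-71124025 was in both Middle lists, at 6.69 in WT and 6.36 in dHx. Outside the gene, the region 9.73 kb above it had 12.5 in WT High and 5.35 in WT Middle, and 12.6, 11.5 and 4.47 in dHx High, Middle and Negative. That at 21.3 kb below was in both High lists (7.96 in WT and 12.6 in dHx), and that at 69.9 kb in WT Middle (4.68) and dHx Negative (5.74).

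Sox9 encodes an HMG-box factor of the notochord, cartilage and neural crest (gene 20682, chr11:112782210-112787757), and its neighbours are far away, so all peaks within 100 kb were its own. The region at its lower-coordinate end (chr11:112781949-112783163) was open in all 6 lists, at 25, 20.1 and 17.5 in WT High, Middle and Negative and at 27.3, 24.2 and 22.3 in dHx. These values were close, with overlapping intervals. The region 59.0 kb below the gene (chr11:112722759-112723671, 913 bases) was listed in the 4 RFP-positive lists alone: 21.6 (13 to 33.7) in WT High, 12 (7.13 to 19.0) in WT Middle, 31.5 (17.6 to 52.0) in dHx High and 20.4 (11.6 to 33.0) in dHx Middle. The log2 ratio of WT to dHx was -0.54 in High and -0.76 in Middle, with overlapping intervals, beside medians of -0.57 and -0.40 over all regions open in both lists.

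Inside Sox9 the lists differed between adjacent regions. The region at chr11:112784379-112784832 had 23.1 in dHx High, 20.4 in dHx Middle, 16.7 in WT Middle and 6.46 in WT Negative, and no peak in WT High. The next, at chr11:112785057-112785362, was in the Negative lists alone, with 6.46 in WT and 7.02 in dHx, and so was the region just past the gene (chr11:112787832-112788676), with 6.46 and 5.11. Near the gene 4 further regions were in 1 list: chr11:112776936-112777381 in dHx Middle (5.09), chr11:112778193-112778612 in WT Negative (5.54), chr11:112781262-112781694 in dHx Negative (3.83) and chr11:112791597-112791807 in WT Middle (10.7). Above the gene, regions at 23.5 and 52.8 kb were open in every list but dHx Middle, with heights of 10.2 to 25.5 and 4.01 to 21.0. So was a region 53.8 kb below the gene, at 4.47 to 10.2. There the dHx Negative peak shared no base with the WT Middle and dHx High peaks and was joined to them through the other WT peaks. The region at 32.6 kb was listed in WT High at 19.3, WT Middle at 8.69, dHx Middle at 11.5 and dHx Negative at 7.02. A region at 48.0 kb had 16.8 in dHx High and 4.62 in WT Negative, and 1 at 82.5 kb had 10.5 in dHx High, 8.31 in WT Negative and 7.02 in dHx Negative. Counting those near the gene, 10 of the 21 Sox9 regions were in 1 list, at 3.83 to 10.7.

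**Figure D4:**
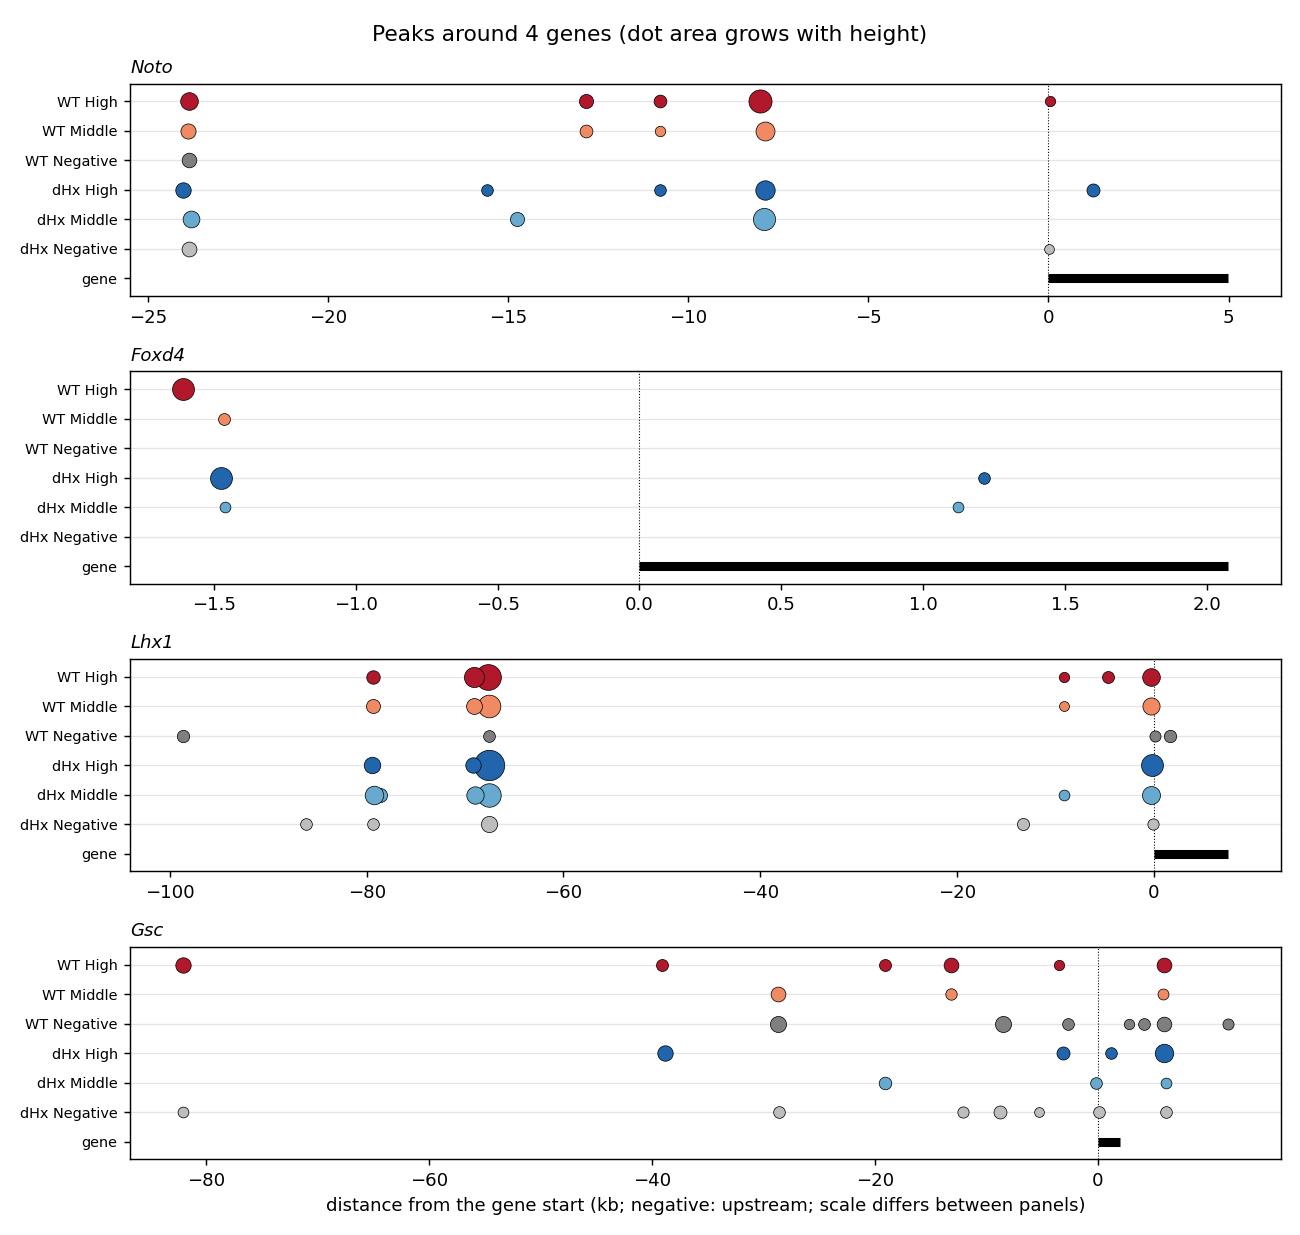
Peaks of Noto, Foxd4, Lhx1 and Gsc by distance from the gene's start (horizontal axis, kb, negative for upstream, a different scale in each panel), with 1 line per peak list, dot area growing with height, and the gene as a black bar. The Noto and Foxd4 regions listed in all 4 RFP-positive groups alone lie 8.0 and 1.61 kb upstream, the Lhx1 peaks gather at 67.6 to 79.3 kb upstream, and the Gsc peaks are scattered.

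Regions open in all 4 RFP-positive lists and neither Negative list numbered 4 of 77 (5.19%, exact 95% interval 1.43 to 12.8), beside 2.08% of all regions, which lies inside that interval. They were the regions of Noto at 8.0 kb, Foxd4 at 1.61 kb, Lhx1 at 69.1 kb and Sox9 at 59.0 kb described above, and with a window of 50 kb the latter pair was lost, which left 2. The reverse, both Negative lists and no RFP-positive list, held for 3 regions, 1 at Gsc and 2 at Sox9 (2.78% of all regions). Both WT RFP-positive lists and neither dHx one held for 2, 1 each at Noto and Gsc (3.06%), and both dHx RFP-positive lists and neither WT one for 2, 1 each at Foxd4 and Bicc1 (1.18%). Both High lists and neither Negative list held for 6 regions (7.79%, beside 5.4%). At least 1 RFP-positive list and no Negative list held for 31 regions (40.3%, beside 40.1%), and the reverse for 20 (26.0%, beside 20.1%). Each of these shares was near that of all regions or rests on a handful of regions.

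The WT High peaks without a WT Negative peak were 18 of 29 (62.1%, exact 95% interval 42.3 to 79.3), beside 49% of all WT High peaks. For WT Middle the count was 16 of 30 (53.3%, beside 50.9%). The WT Negative peaks without a WT High peak were 18 of 29 (62.1%, beside 41%), and those without a WT Middle peak 15 of 29 (51.7%, beside 39.7%). In dHx, High peaks without a Negative peak were 19 of 31 (61.3%, interval 42.2 to 78.1, beside 38.9%) and Middle peaks 17 of 28 (60.7%, interval 40.6 to 78.5, beside 39.2%). Of the dHx Negative peaks, 22 of 34 (64.7%, beside 54.4%) had no High peak and 23 of 34 (67.6%, beside 52.8%) no Middle peak. In 3 of these 8 shares the interval left out the value of all peaks: WT Negative against WT High, and dHx High and dHx Middle against dHx Negative. None of the 3 held throughout: the value of all peaks came back inside the interval in 4, 4 and 5 of the 8 alternatives, in that order. With peaks at or above a common lowest height of 6.30 it did so for dHx High (67.7%, interval 48.6 to 83.3, beside 50%) and for dHx Middle (69.6%, interval 47.1 to 86.8, beside 47.3%). WT Negative against WT High fell to 3 of 10 (30%) among the upper 50% of each list by score, below the 38.0% of all peaks there. Peaks of 7 genes are also not independent.

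Between genotypes the shares were lower, and every interval held the value of all peaks. The WT High peaks without a dHx High peak were 10 of 29 (34.5%, interval 17.9 to 54.3, beside 43%), and dHx High peaks without a WT High peak 12 of 31 (38.7%, interval 21.9 to 57.8, beside 30.6%). For Middle the counts were 13 of 30 (43.3%, interval 25.5 to 62.6, beside 43.9%) and 11 of 28 (39.3%, interval 21.5 to 59.4, beside 30.9%). For Negative they were 12 of 29 (41.4%, beside 28.8%) and 17 of 34 (50%, beside 44.5%). By gene, WT High lacked a dHx High partner for 2 of 5 Noto peaks, 5 of 6 Gsc peaks, 2 of 6 Lhx1 peaks, 1 of 6 Sox9 peaks and none of the 5 Bicc1 peaks or the 1 Foxd4 peak. By overlap of at least 1 base, Gsc was thus the gene with most of its WT High peaks missing from dHx High. In turn, 3 of its 4 dHx High peaks were missing from WT High. These Gsc counts rest partly on near misses. The dHx High peaks at chr12:104511970-104512217 and chr12:104476178-104476461 lie close to WT High peaks at chr12:104512220-104512486 and chr12:104476563-104476794. With peaks under 500 bases apart counted as shared, the counts over the 7 genes fell to 8 of 29 (WT High) and 10 of 31 (dHx High).

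**Figure D5:**
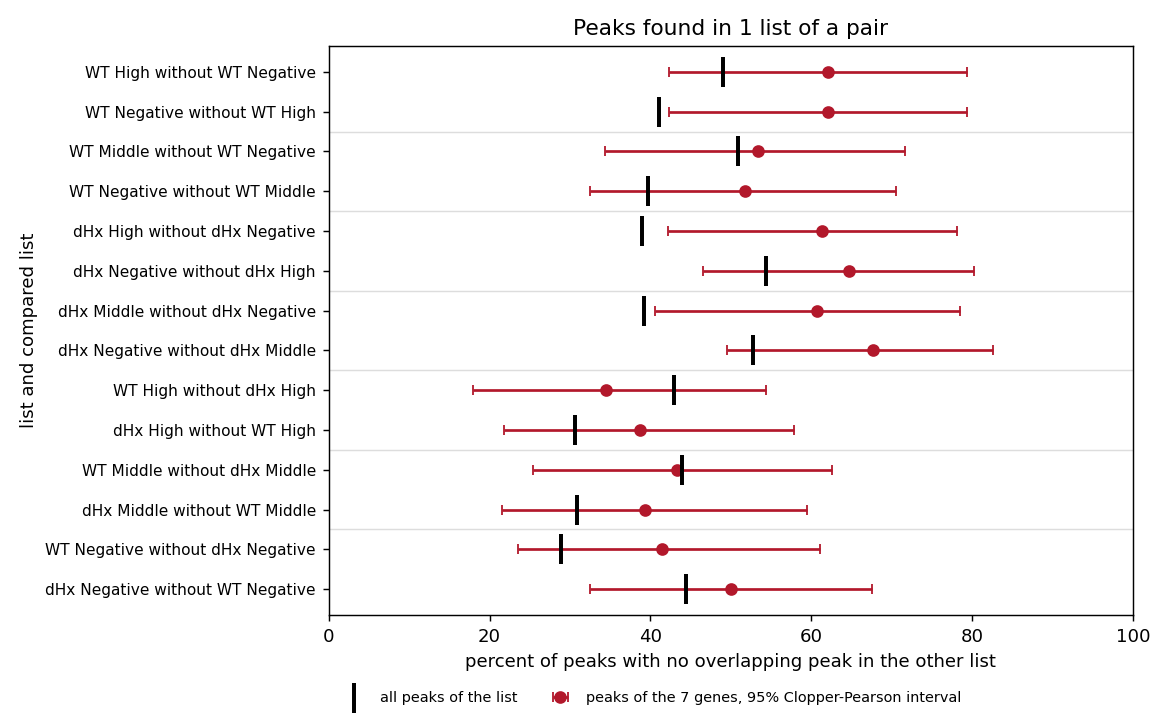
Share of the peaks of the 7 genes in one list with no overlapping peak in another (percent, points with exact 95% intervals for counting error) beside the same share over all peaks of that list, for the 14 ordered pairs of lists. The points of WT High against dHx High (34.5% and 38.7%) lie near the values of all peaks (43% and 30.6%), and those of dHx High and dHx Middle against dHx Negative (61.3% and 60.7%) lie above them with the settings plotted, with intervals that take in the value of all peaks in 4 and 5 of 8 alternatives.

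None of 19 regions open in both High lists, 17 in both Middle lists or 17 in both Negative lists had WT and dHx intervals that were apart. The median log2 ratio of WT to dHx was -0.50 in High, beside -0.57 over all regions, -0.28 in Middle, beside -0.40, and -0.05 in Negative, beside 0.05. The 5 regions with the greatest heights, at Lhx1 (67.6 kb), Bicc1 (2 regions), Sox9 (59.0 kb) and Noto (8.0 kb), were all listed in both High lists. Their log2 ratios of WT to dHx in High were -0.50 for Lhx1, -0.89 for the Bicc1 region highest in Negative, -0.08 for that open in every list, -0.54 for Sox9 and 0.55 for Noto. Next came the regions at the start of Lhx1 and upstream of Foxd4 and the Sox9 region open in every list, each at 27.3, with -0.68 for Lhx1, -0.13 for Sox9 and a linear ratio of 0.999 for Foxd4. The 181 peaks of the 77 regions had 3 to 69 stacked reads at the summit (median 9). At such counts the intervals are wide, and their overlap does not show that heights are equal.

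A further 40 node, notochord and organizer genes, among them Shh, Chrd, Nodal and Foxj1, had 499 regions. The regions in all 4 RFP-positive lists and neither Negative list numbered 16 (3.21%, beside 2.08% of all regions), at 14 of the 40 genes. The 12 endoderm genes had 8 (7.55%), at 4 genes, the mesoderm genes 1 (0.90%), the epiblast and neural plate genes 0 and the extraembryonic ectoderm genes 1 (1.16%). Regions of the 40 genes in both Negative lists alone numbered 22 (4.41%, beside 2.78% of all regions). Of the WT High peaks of the 40 genes 37.1% had no dHx High peak, beside 34.5% for the 7 genes and 43% of all WT High peaks. By the share of a gene's regions open in each of the 6 lists, the genes most like each member, among 66 candidates with 5 or more regions, were Shh and Chrd for Noto (mean absolute difference of 0.0625 and 0.0833), Cxcr4 and Foxa2 for Lhx1 (0.0626 and 0.0657), Pkd1l1 and Gli2 for Gsc (0.0806 and 0.0830), Sox6 and Ssbp3 for Bicc1 (0.0678 and 0.0773) and Pax6 and Eomes for Sox9 (0.0587 and 0.0622). The median difference over the candidates was 0.16 to 0.22. Noto and Shh each had 8 regions. In WT High, Middle and Negative 62.5%, 50% and 12.5% of the Noto regions were open, beside 75%, 37.5% and 12.5% for Shh, and in dHx 62.5%, 37.5% and 25%, beside 62.5%, 50% and 25%.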

How the data were processed

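ATAC-seq peaks of 12 mouse embryo samples in 6 groups were used. Reads were aligned with STAR 2.5.2a to mm10 and peaks called with MACS2, per the submitters' processing notes; the peak names say that samples were pooled and alignments filtered, and no further setting was stated. The deposited scores are −log10 values, made by the authors' peak caller, and whether of p or q is not stated. Only the steps between scores were fitted, as steps of Poisson p-values, so the fit does not tell p from q. Rows with the same start and end were merged, which kept the highest score.

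From the 40 lowest distinct scores of each list a Poisson background was fitted, and each score was turned into a summit height over that background, as checked on simulated lists. The unit stacked at a summit (reads, fragments or cut sites) is not stated. Depth per sample is not in the files, so heights and intervals carry counting error only. Genes and promoters came from RefSeq (GRCm38.p6), and 2 of the 7 genes, Bicc1 and Sox9, had no promoter entry. No genome was used here, so peak sequences were not analysed.

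Shares of peaks in 1 list of a pair carry Clopper-Pearson intervals, are set beside the same share over all peaks, and were recomputed under 6 planned and 2 later alternatives, the latter chosen after seeing the data. The 7 genes and the gene lists were chosen with earlier results of these data known. Regions were given by coordinates if they overlapped a gene or lay within 5 kb, had 1 of 3 patterns (all 4 RFP-positive lists and neither Negative list, or both RFP-positive lists of 1 genotype alone), or were among the 2 highest by median rank of a gene; others named by position were chosen after their values were seen. Python 3.11.15, numpy 2.4.6, pandas 2.3.3, scipy 1.17.1 and matplotlib 3.10.9 were used.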

Additional observations from a re-analysis of the deposited data

Results flagged for a closer look

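Some genes had a net number of peaks (peaks of the first list less those of the other) that ran one way in one pair of groups and the opposite way in the next. None of these differences was tested, since each group is a single peak list, and a net of 1 can rest on 1 weak peak. For Noto the net of WT over dHx was 1 in Middle and -1 in Negative. For Lhx1 the net of High over Negative was 2 in WT and -1 in dHx, and that of WT over dHx was 2 in High against -1 in both Middle and Negative. The whole lists also held more peaks in High than in Negative in WT and fewer in dHx. For Sox9 the net of WT over dHx was -3 in High, 2 in Middle and -1 in Negative. No group held enough samples for a search for outlying samples.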

How the results depend on the processing

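No paired analysis was possible because each group is 1 peak list called on pooled samples, with no values per replicate; for the same reason no replicate could be left out. Of 112 values of the 14 shares under 8 alternatives, 105 stayed within the 95% interval of the value reported. Among the upper 50% of each list by score 6 moved out of it: WT Negative without WT High to 30%, WT Middle without WT Negative to 72.2%, dHx Negative without dHx High to 25%, dHx High without WT High to 15.4%, dHx Middle without WT Middle to 20% and dHx Negative without WT Negative to 12.5%. With peaks at or above a common lowest height of 6.30, dHx Negative without dHx High moved to 44.4%. In these alternatives fewer peaks are compared, and no further cause was tested. The regions in all 4 RFP-positive lists and neither Negative list fell from 4 to 2 with a window of 50 kb. The regions open in all 6 lists went from 6 of 77 to 15 of 127 with every peak within 100 kb, and to 2 of 30 in the upper 50%. All 188 values of 94 heights with the lowest pileup read 1 step lower or higher stayed within their counting intervals. Depth limits most what can be said of dHx High, where 1 stacked read changes a height by more than in any other list.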
